A study of Mus musculus with 2 samples.

Results

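The mouse genes Msln, Slurp1, 2610528A11Rik, Anxa8, S100g, Aqp5 and Slc16a11 were described in tumor-like cells of 2 single-cell RNA libraries. These 7 of the 32285 genes in the feature lists were chosen by their measured levels, which lead 1 group of tumor cells in an earlier grouping of the same data, so that their occurrence together in cells is given below as a description. They were measured in 2603 tumor-like cells of 8739 kept cells in the flox library, and in 4599 of 11689 in the library labelled MCT1-KO. Paired values below are in that order, flox first.

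The study grew KPC tumors (from a mouse pancreatic cancer cell line) under the pancreatic capsule of male mice, and asked how loss of the lactate transporter MCT1 in pancreatic stellate cells (PSCs) changes the tumor. The flox host carried MCT1 fl/fl alleles. The other host was of the Col1a2-CreERT2 MCT1-/- kind, in which tamoxifen activates a Cre recombinase driven by the promoter of a collagen gene of fibroblasts and PSCs. The paper's scheme gives tamoxifen or corn oil before the tumor cells, and does not state which of them each sequenced host received. Each group was 1 library of unsorted live tumor cells, so no test between groups was possible. The deletion could not be checked here, since which part of MCT1 (Slc16a1) was removed is not given in the sources used here and 3′ counts can come from outside it. In the fibroblast- and PSC-like cells Slc16a1 stood at 29.0 (95% interval 22.8 to 36.4) and 36.3 (29.1 to 44.7) counts per 1000000 UMIs (CPM), a ratio of 1.25 (0.908 to 1.72), which is not lower in the library labelled MCT1-KO. Of these cells, 79 of 226 and 90 of 301 also reached the marker threshold of a second cell class. In tumor-like cells Slc16a1 stood at 36.6 and 45.5 CPM, and the part of tumor RNA in the ratio was not tested. The paper itself reports less MCT1 in knockout PSCs in its single-cell data. It also reports less protein and RNA in primary PSCs, and less staining in the pancreas, of such mice.

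Mesothelin (Msln) is a surface glycoprotein held by a lipid anchor that binds the mucin Muc16, and it is a marker of mesothelium and of many pancreatic carcinomas. Slurp1 is a small secreted protein of the Ly6 family that acts at the nicotinic receptor subunit Chrna7, and 2610528A11Rik is the mouse counterpart of human GPR15LG, a secreted ligand of the receptor Gpr15. Anxa8 is an annexin that binds membrane phospholipids when calcium is present, S100g (calbindin-D9k) is a calcium buffer, Aqp5 is a water channel of gland epithelia, and Slc16a11 (MCT11) belongs to the same monocarboxylate transporter family as MCT1.

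The genes lie on 5 chromosomes. In GENCODE vM21 on GRCm38, Msln (ENSMUSG00000063011) is at chr17:25748613-25754378 on the minus strand, and Slurp1 at chr15:74724318-74728034, also on the minus strand. Aqp5 is on the same chromosome as Slurp1, at chr15:99590782-99594829 on the plus strand. Anxa8 (chr14:34085981-34100571, plus) and 2610528A11Rik (chr14:37102140-37114022, minus) also share a chromosome, S100g is at chrX:162961992-162964599 on the minus strand, and Slc16a11 at chr11:70212752-70216417 on the plus strand. Slurp1 overlaps Them6, Anxa8 overlaps A630023A22Rik and S100g overlaps Ctps2, each on the other strand. Whether the authors' counting used strand is not given in the sources used here, so reads of such a pair may have been shared. Slc16a11 lies 372 bases from Slc16a13, a family member on the other strand, and Msln lies 283 bases from its paralog Mslnl. None of these neighbours differed past 1.5-fold between libraries: Them6, on the strand opposite Slurp1, had a ratio of 1.19, A630023A22Rik 1.41, Ctps2 1.08, Slc16a13 0.833 and Cdhr1, the neighbour of 2610528A11Rik, 0.763, while Mslnl was at 6 and 14 UMIs.

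RefSeq start sites on GRCm38.p6 were matched for 5 of the 7 genes, and for Msln and Slurp1 no promoter is printed. The 250 bases before the start of Anxa8 (chr14:34085729-34085978, plus strand) and of S100g (chrX:162964600-162964849, minus strand) are shown 5′ to 3′. Of the matched windows, only these lie wholly outside the span of their gene in GENCODE. Capitals would mark a motif found on either strand, and neither window has one. The letters searched were GGAATG for the TEAD factors, TGACTCA for the AP-1 factors, GGGCGG for the KLF and SP factors, CAGGTG for the E-box proteins and AGATAA for the GATA factors.

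Anxa8: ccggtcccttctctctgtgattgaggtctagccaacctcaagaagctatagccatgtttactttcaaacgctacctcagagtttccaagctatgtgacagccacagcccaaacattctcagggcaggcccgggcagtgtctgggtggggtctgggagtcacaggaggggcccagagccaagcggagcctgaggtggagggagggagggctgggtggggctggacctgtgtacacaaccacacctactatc
S100g: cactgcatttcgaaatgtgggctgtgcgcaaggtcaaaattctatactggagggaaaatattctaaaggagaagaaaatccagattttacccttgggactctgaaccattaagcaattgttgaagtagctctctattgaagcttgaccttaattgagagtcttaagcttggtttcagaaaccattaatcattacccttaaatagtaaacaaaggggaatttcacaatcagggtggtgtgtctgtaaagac

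The Anxa8 window has 58.0% G and C and 4 CpG pairs, and the S100g window 38.4% and 2, beside a median of 52.4% and 6 over 32851 promoters. The window before the RefSeq start of Aqp5 lies partly inside the span of its gene in GENCODE, and those of 2610528A11Rik and Slc16a11 lie wholly inside it. These windows may thus not be promoters and are not printed. The Aqp5 window had 78.4% G and C, 38 CpG pairs and 2 GGGCGG matches. The Slc16a11 window held 14 CpG pairs and 1 CAGGTG, and the 2610528A11Rik window 5 CpG pairs and no motif. Of all promoter windows 32.7% held GGGCGG and 17.2% held CAGGTG, and no motif searched was in more than 1 of the 5 windows.

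The libraries held 177334432 and 151118092 UMIs over all barcodes, and the kept cells 61149689 and 81494894, with medians of 4069 and 3706 UMIs per cell. Tumor-like cells were deeper and alike in depth, at medians of 13753 and 13745 UMIs. Cells were classed one by one from summed marker UMIs. The tumor-like class rested on the keratins Krt8 (found in 90.2% and 92.9% of its cells) and Krt18 (94.0% and 94.5%), while Epcam was found in 0.960% and 1.17%, so the class is keratin-positive and low in this epithelial adhesion marker. Y-linked genes (Ddx3y, Eif2s3y, Kdm5d and Uty), which mark cells of the male hosts, summed to 5.62 and 3.88 CPM in tumor-like cells against 173 and 150 CPM in macrophage-like cells. The class is a cut at 4 tumor marker UMIs per 10000: 284 and 435 of its cells had between 4 and 6, and 137 and 219 other cells had between 3 and 4. The libraries shared 59 barcodes among kept cells, 0.675% and 0.505%.

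Most UMIs of each of the 7 genes in kept cells lay in tumor-like cells. Of the UMIs of the 7 genes in kept cells, 9480 of 11537 (82.2%) and 17248 of 19317 (89.3%) were in that class, which held 29.8% and 39.3% of the cells and 51.5% and 68.0% of all UMIs of kept cells. For single genes the share ran from 79.2% (Slc16a11) to 86.4% (Slurp1) in the flox library, and from 86.8% (2610528A11Rik) to 96.9% (Slurp1) in the library labelled MCT1-KO. By level, some other cells came close to or passed the tumor-like cells for Msln, Anxa8 and Slc16a11, as given below. Intervals here and below are 95% intervals and cover counting error only, without the spread between cells or between animals. Those of levels and ratios treat each UMI as independent, although single cells held many UMIs of some genes, so they are too narrow for such genes.

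**Figure D1:**
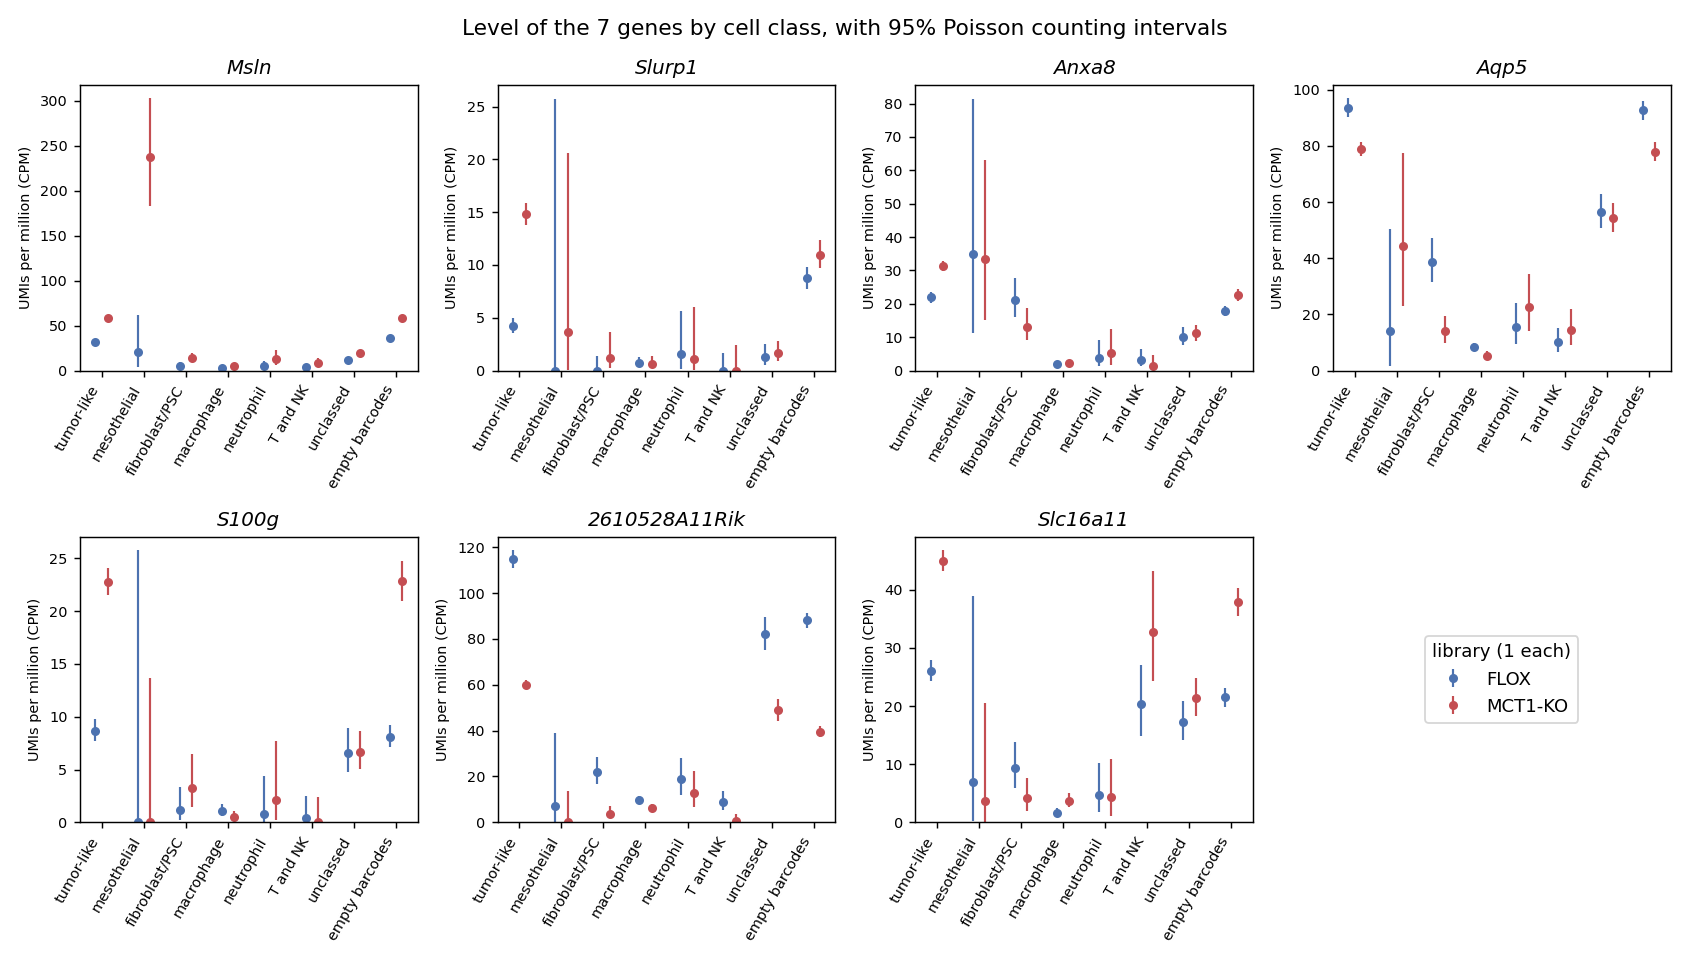
Level of each gene (CPM) in 7 cell classes and in empty barcodes of 10 to 100 UMIs, for the flox library (blue) and the library labelled MCT1-KO (red), with points at the level and bars for 95% Poisson counting intervals; the scale differs between panels. Slurp1 and S100g reach 14.8 and 22.8 CPM in tumor-like cells of the second library and stay near 0 in immune classes, Msln is highest in its mesothelial-like cells, and Slc16a11 is also seen in T and NK cells.

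Msln gave 995 and 3239 UMIs in tumor-like cells. Its level was 31.6 (29.6 to 33.6) CPM in the flox library and 58.4 (56.4 to 60.5) CPM in the library labelled MCT1-KO, and it was found in 20.4% and 30.1% of tumor-like cells. The level was thus 1.85 (1.72 to 1.99) times as high in the second library, beyond counting error. Among cells free of immune and stromal marker UMIs it was 3.22 (2.34 to 4.57) times as high. That rule kept 849 and 2648 mostly shallow cells, at medians of 1297 and 1750 UMIs. The mesothelial-like class, small and defined without Msln, held 3 Msln UMIs in 1 of 18 cells of the flox library, or 21.0 (4.32 to 61.2) CPM. In the library labelled MCT1-KO it held 64 UMIs in 7 of 30 cells, or 236.8 (182 to 302) CPM, the highest level of Msln in any class drawn. By the same markers 16 of the 18 and 27 of the 30 cells also reached the threshold of a second class. In tumor-like cells the mesothelium's own markers, summed over 8 genes, stood at 9.14 CPM in flox cells with none of the 7 genes and 4.93 CPM in those with 3 or more, and at 4.53 and 5.42 CPM in the other library. Cells that reached the mesothelial threshold were not classed as tumor-like, so the class rule itself keeps these marker values low. The part of mesothelial RNA in the Msln level was not tested. Muc16, the mucin that mesothelin binds, had 3 UMIs and 1 UMI over all tumor-like cells.

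Slurp1 was rare and held by few cells. It gave 133 UMIs in 45 tumor-like cells (1.73%) of the flox library and 820 UMIs in 103 cells (2.24%) of the other. The level was 4.22 (3.53 to 5.0) and 14.8 (13.8 to 15.8) CPM, a ratio of 3.50 (2.91 to 4.24). The difference lay in the number of UMIs per cell more than in the number of cells: in cells thinned to 8000 UMIs, 1.37% (0.852 to 2.09) and 1.95% (1.48 to 2.51) held a Slurp1 UMI, and these intervals overlap. The 10 richest cells held 66.2% and 56.5% of the Slurp1 UMIs, with up to 29 and 102 in 1 cell. Without those 10 cells per library the ratio was 4.50 (3.29 to 6.28). The filter on detected genes decides whether a difference is seen for Slurp1. Among tumor-like barcodes with over 5000 genes, which the filter leaves out, Slurp1 stood at 13.9 and 6.34 CPM, a ratio of 0.455 (0.391 to 0.528), and with no upper limit on genes the ratio over all tumor-like cells was 1.08 (0.992 to 1.18), so that no direction is read for this gene. With free RNA subtracted the ratio in the kept cells was 12.1 (8.06 to 19.1) by acinar genes and 4.05 (3.31 to 5.01) by the level in macrophage-like cells.

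No Slurp1 UMI was found in the T and NK class of either library, and the macrophage-like class was at 0.719 and 0.658 CPM. The receptor subunit Chrna7 was at 2 UMIs and 0 UMIs in tumor-like cells and at 4 UMIs in the fibroblast- and PSC-like cells of each library. Of the Ly6 relatives, Plaur, the urokinase receptor, was at 128.2 and 153.3 CPM, a ratio of 1.2, and Lynx1 at 14.6 and 14.3 CPM. Ly6d, a marker of stratified epithelium, stood at 5.05 and 1.21 CPM, a ratio of 0.240 (0.177 to 0.321). Slurp2 was at 2 and 14 UMIs.

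2610528A11Rik was lower in the library labelled MCT1-KO. It gave 3620 and 3330 UMIs, or 114.9 and 60.1 CPM, and was found in 31.1% and 19.1% of tumor-like cells. The ratio was 0.523 (0.499 to 0.548), and both the share of cells and the level were lower. In cells thinned to 8000 UMIs the shares were 28.7% and 17.5%. The 10 richest cells held 18.7% and 12.1% of the UMIs, with at most 126 and 59 in 1 cell, and without them the ratio was 0.563. In barcodes over the gene limit it was 0.368. The receptor Gpr15 was not found in the T and NK class of either library, and had 1 UMI in tumor-like cells of the library labelled MCT1-KO and 1 UMI in the macrophage-like cells of each, too few to describe the cells that carry it.

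Anxa8 gave 692 and 1730 UMIs in tumor-like cells, or 22.0 and 31.2 CPM, and was found in 15.5% and 20.9% of them. The ratio of 1.42 (1.30 to 1.55) lay beyond counting error and under the 1.5-fold used to count a gene as higher. It was also found outside tumor-like cells. In the fibroblast- and PSC-like class Anxa8 was at 21.3 and 13.2 CPM, close to the tumor-like level in the flox library, and with 55 UMIs beside 100 of Aqp5 it was more frequent against Aqp5 there than in tumor-like cells (692 beside 2946). Of the fibroblast- and PSC-like cells, 79 of 226 and 90 of 301 also reached the threshold of a second class. The mesothelial-like cells had 34.9 and 33.3 CPM, from 5 and 9 UMIs. Of the other annexins, the ratios were Anxa1 1.08, Anxa2 1.15, Anxa3 0.868 and Anxa5 0.918, while Anxa10 had 26 and 14 UMIs, a ratio of 0.306 (0.148 to 0.608).

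S100g gave 273 and 1263 UMIs, or 8.66 and 22.8 CPM, and was found in 5.88% and 10.3% of tumor-like cells. Its ratio of 2.63 (2.31 to 3.01) changed little without the 10 richest cells (2.65), although these held 23.4% and 22.6% of its UMIs and 1 cell of the library labelled MCT1-KO held 96. Over the gene limit the ratio was 1.72. Immune classes were near 0, with 1.05 and 0.470 CPM in macrophage-like cells. Of the other S100 genes, S100a10 had a ratio of 1.19, S100a11 1.24, S100a16 0.985, and S100a6, which was abundant, 1.49. The calcium channel Trpv6, which works with calbindin-D9k in calcium uptake by gut epithelium, was at 1 UMI and 0 UMIs, and the vitamin D receptor Vdr at 11.8 and 10.7 CPM.

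Aqp5 was found in the most tumor-like cells of the 7 genes, 1279 (49.1%) and 2119 (46.1%). It gave 2946 and 4370 UMIs, or 93.5 and 78.8 CPM, a ratio of 0.843 (0.804 to 0.884). The level was a little lower in the library labelled MCT1-KO, beyond counting error, and spread over many cells, with 4.45% and 2.93% of UMIs in the 10 richest. Among cells free of immune and stromal marker UMIs, which were shallow at medians of 1297 and 1750 UMIs, the ratio was 0.977 (0.830 to 1.16). Outside the tumor-like class it stood at 38.7 and 14.01 CPM in fibroblast- and PSC-like cells. In a small class of epithelial cells rich in Epcam and other junction genes, set apart from the tumor-like cells, Aqp5 was at 64.5 and 41.2 CPM. That level came from 16 and 13 UMIs. Of the other water channels, Aqp1 was at 59.8 and 57.7 CPM, a ratio of 0.964, and Aqp4 at 24.5 and 9.61 CPM, a ratio of 0.393 (0.351 to 0.439). Aqp3 had 1 and 16 UMIs, and Aqp8 had none.

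Slc16a11 gave 821 and 2496 UMIs in tumor-like cells, or 26.1 and 45.02 CPM, and was found in 22.6% and 30.2% of them. The ratio was 1.73 (1.60 to 1.87), 1.80 without the 10 richest cells and 1.62 in barcodes over the gene limit. It was the member most present in lymphocytes. The T and NK class held 46 and 50 UMIs, or 20.4 and 32.8 CPM, more than its 23 and 22 UMIs of Aqp5, whereas in tumor-like cells Aqp5 had more UMIs than Slc16a11. Among T and NK cells, those with a CD8 transcript, a group chosen after values had been seen, held 28.2 (20.03 to 38.5) and 44.7 (32.1 to 60.6) CPM against 8.0 and 14.8 CPM in the rest. The ratios were 3.52 (1.56 to 9.33) and 3.02 (1.45 to 7.07), from 23 of 332 and 28 of 222 CD8 cells with a UMI. At 28.2 and 44.7 CPM the CD8 cells stood close to the 26.1 and 45.02 CPM of tumor-like cells. The tumor keratins Krt8 and Krt18, a measure of tumor RNA in those droplets, stood at 119 CPM in the CD8 cells and 110 CPM in the rest of the flox library, and at 87.2 and 98.6 CPM in the other.

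Other transporters of the family differed between libraries in both directions. Slc16a1 (MCT1) in tumor-like cells was at 36.6 and 45.5 CPM, a ratio of 1.24 (1.16 to 1.33), and Slc16a10, an amino acid transporter of the family, at 59.1 and 87.0 CPM, a ratio of 1.47. Slc16a13, the neighbour, stood at 7.17 and 5.97 CPM. Slc16a3 (MCT4), a lactate exporter, was low in tumor-like cells, at 2.32 and 0.649 CPM, a ratio of 0.280 (0.183 to 0.423) from 73 and 36 UMIs, and much higher in neutrophil-like cells, at 312.1 and 259.5 CPM. Bsg, the chaperone of MCT1 and MCT4, was at 584.6 and 455.9 CPM, and Emb, another chaperone of the family, at 2.54 and 3.25 CPM.

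Set against all genes, 4 of the 7 members (Msln, Slurp1, S100g and Slc16a11) were at least 1.5-fold higher in the library labelled MCT1-KO and 1 (2610528A11Rik) at least 1.5-fold lower. Of 13290 genes with at least 50 UMIs in tumor-like cells, 763 (5.74%) were that much higher and 1017 (7.65%) that much lower, with a median ratio of 1.01. For Slurp1 the count holds only under the gene limit. The members were picked with these libraries in view and no replicate exists, so the counts describe 2 tumors. The genes differed in opposite directions, and their sum was 300.8 and 311.1 CPM, a ratio of 1.03 (1.01 to 1.06). It was 1.35 without 2610528A11Rik and 0.985 (0.956 to 1.01) with free RNA subtracted by acinar genes, so that no direction is read for the sum.

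**Figure D2:**
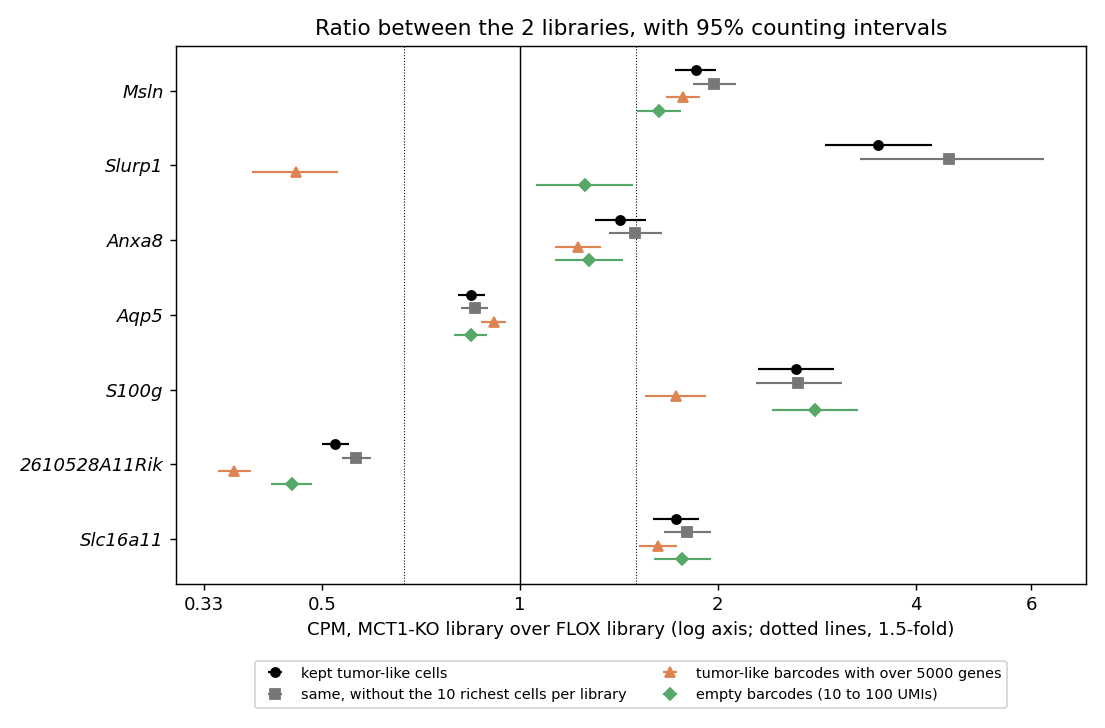
Ratio of CPM between libraries (library labelled MCT1-KO over flox, log axis) for each gene in kept tumor-like cells (black circles), the same without the 10 richest cells per library (grey squares), tumor-like barcodes with over 5000 genes (orange triangles) and empty barcodes (green diamonds), with 95% counting intervals and dotted lines at 1.5-fold. For 6 genes the 4 marks lie on the same side of 1; for Slurp1 the orange triangle (0.455) lies on the other side.

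RNA outside cells carried the same genes. In barcodes of 10 to 100 UMIs, taken as empty, Msln stood at 36.1 and 58.8 CPM, Slurp1 at 8.74 and 10.95, Anxa8 at 17.7 and 22.5, Aqp5 at 92.6 and 78.0, S100g at 8.13 and 22.8, 2610528A11Rik at 88.1 and 39.5, and Slc16a11 at 21.5 and 37.9 CPM. Summed they came to 272.9 and 270.6 CPM. Slurp1 and Msln in the flox library were above their level in tumor-like cells, and Anxa8, 2610528A11Rik and Slc16a11 were below it in both libraries. The ratios between libraries in empty barcodes had the direction of the tumor-like cells for each gene: 1.63 for Msln, 1.25 for Slurp1, 1.27 for Anxa8, 0.842 for Aqp5, 2.81 for S100g, 0.449 for 2610528A11Rik and 1.76 for Slc16a11. The free share of a tumor-like cell's UMIs was estimated from acinar genes as 39.7% and 7.60%. In the flox library those genes stood at 129 CPM in tumor-like cells beside 326 CPM outside cells, and in the other at 1292 beside 16998 CPM, so that the free RNA itself differed. The 7 genes in macrophage-like cells, summed, stood at 26.3 and 23.6 CPM, or 9.65% and 8.72% of their level in empty barcodes, so that in the flox library the estimates disagree. With free RNA subtracted by either share, from the gene and from the total, each of the 7 genes kept its direction between libraries.

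The free RNA sets a floor for shares of cells, which was measured in macrophage-like cells, a class that should lack these genes. In cells of both classes thinned to 1000 UMIs, Msln was found in 2.60% and 5.43% of tumor-like against 0.211% and 0.545% of macrophage-like cells. Slurp1 was found in 0.331% and 0.729% against 0.169% and 0%, so that in the flox library its share is near background. Anxa8 (2.11% and 2.49% against 0.169% and 0.0992%), Aqp5 (8.23% and 7.69% against 0.761% and 0.297%) and S100g (0.537% and 1.86% against 0.0423% and 0.0496%) were well above it. For 2610528A11Rik the shares were 7.23% and 4.02% against 1.35% and 0.545%, and for Slc16a11 2.44% and 4.05% against 0.296% and 0.248%. Unthinned, the median depths of the macrophage-like cells were 5789 and 4818 UMIs.

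Most tumor-like cells held few of the 7 genes. Thinned to 2000 UMIs, with 477 and 837 shallower cells left out, 1390 of 2126 and 2362 of 3762 cells had none, and 21 (0.988%, 0.612 to 1.51) and 55 (1.46%, 1.1 to 1.90) had 3 or more. Thinned to 8000 UMIs, with 1074 and 1619 cells left out, 189 of 1529 (12.4%, 10.8 to 14.1) and 523 of 2980 (17.6%, 16.2 to 19.0) had 3 or more, and 25.2% and 24.1% had none. The share with 3 or more was higher in the library labelled MCT1-KO at 8000 UMIs, while at 2000 UMIs the intervals overlap. Unthinned it was 22.5% and 26.4%. All 7 genes were found in 1 and 4 cells, and 6 or more in 19 and 47.

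In pairs, the genes tended to be found in the same cells, as they had been chosen for, most of them weakly. At 2000 UMIs 13 of 21 pairs had an odds ratio above 1 in both libraries and 2 had one at or below 1 in both, with medians of 1.29 and 1.68 and a lowest value of 0, for Slurp1 and S100g in the flox library. At 8000 UMIs, a depth added after seeing the data, the counts were 17 and 3, and the median was 1.33 and 1.66. The pair of Msln and Slurp1 was highest at both depths, at 8.51 and 8.36 and then at 7.98 and 9.06. Of the cells with Slurp1, 13 of 21 (61.9%, 38.4 to 81.9) and 45 of 58 (77.6%, 64.7 to 87.5) also had Msln, against 16.9% and 27.7% of cells without Slurp1.

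**Figure D3:**
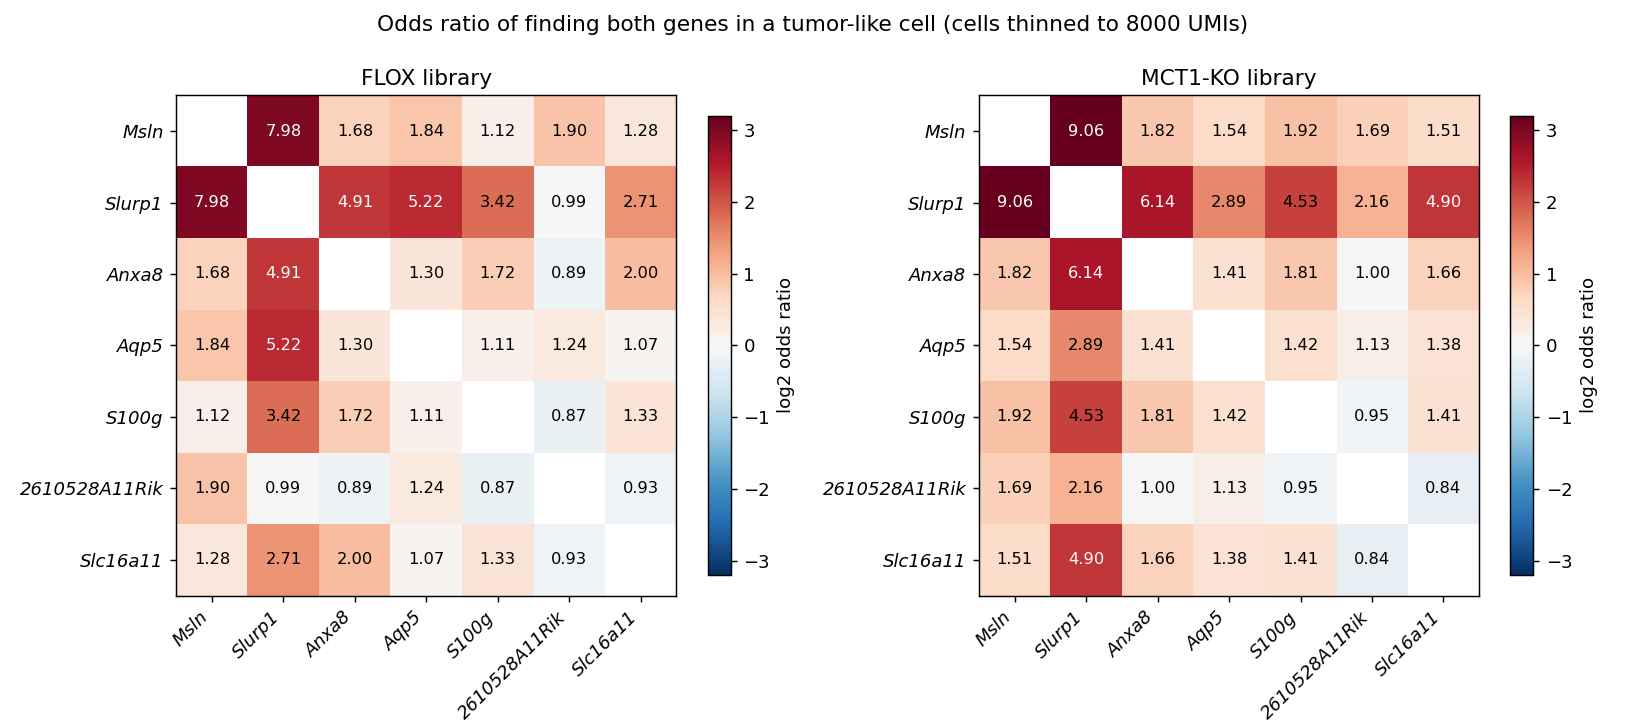
Odds ratio of finding both genes of a pair in a tumor-like cell, with cells thinned to 8000 UMIs, in the flox library (left) and the library labelled MCT1-KO (right). Colour is the log2 odds ratio and the number in each square the odds ratio itself. The row of Slurp1 holds the highest values, 7.98 and 9.06 with Msln, and 2610528A11Rik lies at or below 1 with Anxa8, S100g and Slc16a11 in both libraries.

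At 8000 UMIs Slurp1 was also tied to Aqp5 (5.22 and 2.89), Anxa8 (4.91 and 6.14), S100g (3.42 and 4.53) and Slc16a11 (2.71 and 4.90). In the flox library these came from 17, 8, 3 and 8 cells with both. At 2000 UMIs the flox values were 1.29, 1.78, 0 and 4.54, from 3, 1, 0 and 3 cells with both. The other library had 1.87, 5.77, 6.29 and 5.48 at that depth. Among the remaining genes the ties at 8000 UMIs were weak: Msln with Anxa8 had 1.68 and 1.82, Msln with Slc16a11 1.28 and 1.51, Anxa8 with S100g 1.72 and 1.81, and Anxa8 with Slc16a11 2.00 and 1.66. For 2610528A11Rik the odds ratios were 0.89 and 1.00 with Anxa8 and 0.93 and 0.84 with Slc16a11, and at 2000 UMIs they were also at or below 1. With S100g they were 0.87 and 0.95, but 1.39 and 1.68 at 2000 UMIs from 4 and 12 cells with both. With Msln they were 1.90 and 1.69, and with Slurp1 0.99 and 2.16, the first from 6 cells with both. In a graded count, 90.5% and 89.7% of Slurp1 cells held 2 or more of the other 6 genes, against 36.1% and 41.5% of cells without it, and for S100g the shares were 38.4% against 35.2% in the flox library and 53.1% against 38.6% in the other.

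**Figure D4:**
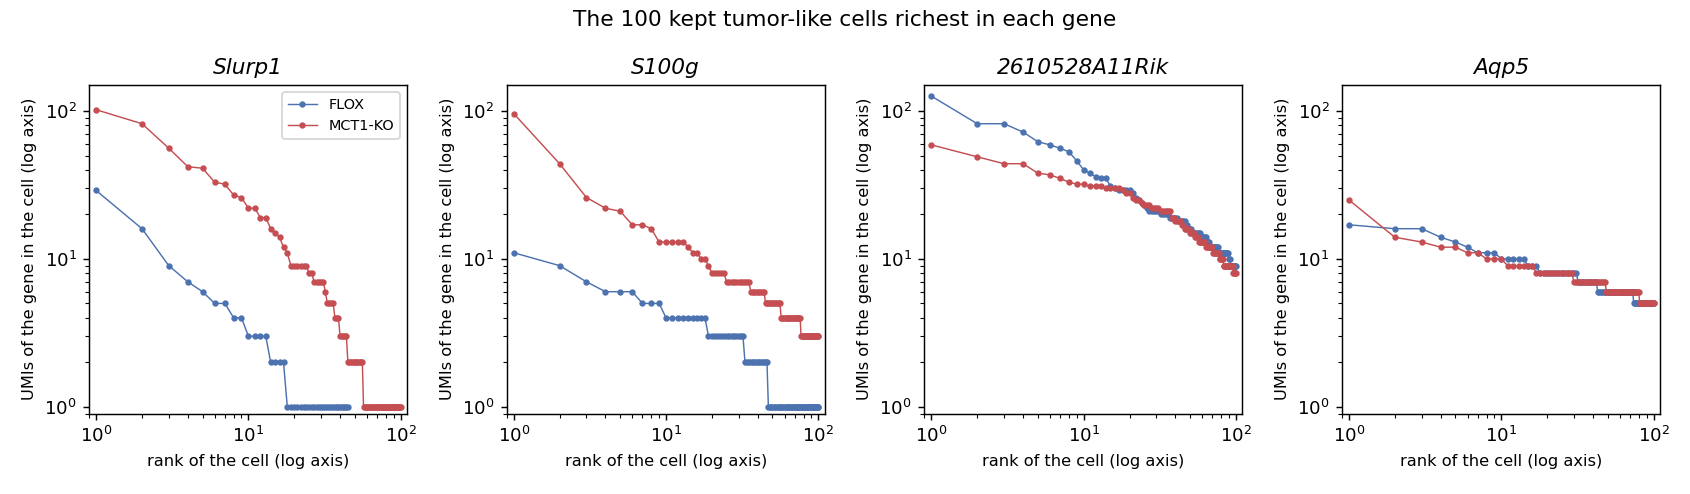
UMIs of 4 genes in the 100 kept tumor-like cells richest in each, against the rank of the cell, both axes logarithmic, in the flox library (blue) and the library labelled MCT1-KO (red). Slurp1 drops from 29 and 102 UMIs in the richest cell to 1 UMI within 60 cells, while Aqp5 starts at 17 and 25 UMIs and falls slowly.

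The cells with 5 or more Slurp1 UMIs were few, 7 and 36, and held 77 and 722 of the Slurp1 UMIs. They were deeper than cells without Slurp1, at medians of 22289 and 20669 UMIs against 13575.5 and 13651. Msln was found in 7 of 7 and 34 of 36 of them. Krt19, a keratin of ducts and simple epithelia, was in 6 and 32 of them, at 332 and 508 CPM against 40.8 and 42.6 CPM in cells without Slurp1. Krt8 was 2.7 and 2.5 times as high, Anxa8 5.3 and 6.7 times, and Slc16a11 3.9 and 3.7 times. 2610528A11Rik was 3.29 and 3.16 times as high, in 3 of the 7 and 15 of the 36 cells, and Aqp5 3.28 and 1.88 times. S100g was at 0.757 times in the flox library, from 1 UMI, and at 6.09 times in the other, while the mesenchymal filament Vim was at 1.0 and 0.9 times. Among the other EMT genes, the matrix protein Fn1 was at 0.694 and 0.598 times, Sparc at 0.564 and 0.618 and the repressor Zeb1 at 0.612 and 0.658. Zeb2 was at 1.25 and 0.895 and Snai1 at 0.985 and 0.466, and Twist1, at 11 UMIs over all cells without Slurp1, was in 7 of the 36 cells of the library labelled MCT1-KO. Sprr1a, a cornified envelope protein of stratified epithelium, was found in 2 and 9 of these cells, at 115 and 83.1 CPM against 7.7 and 7.2. The squamous regulator Trp63 had 0 UMIs and 6 UMIs there, and the basal keratins Krt5, Krt6a, Krt14, Krt15 and Krt17 had none. The 8 mesothelial markers had 0 and 4 UMIs in them, a count that the class rule limits.

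Gene lists were compared between tumor-like cells with 3 or more of the 7 genes and cells with none, at equal depth (8000 UMIs) for the count of genes found. Of 9671 genes with at least 50 UMIs, 115 (1.19%) were at least 1.5-fold higher in both libraries and 244 (2.52%) that much lower. At 2000 UMIs the shares were 2.15% and 10.4% of 10775 genes. Because the group was named from genes of these same cells, the values are a description and nothing is read from those shares. Some keratins were among the higher genes. Of 15 epithelial genes 5 had enough UMIs, and 3 were higher: Krt19 (20.6 to 114.7 CPM and 18.5 to 124.2), Krt7 (32.3 to 78.0 and 30.1 to 99.6) and Krt8 (398.4 to 635.4 and 468.7 to 747.7). Krt7, Krt8 and Krt19 also belong to the markers that class a cell as tumor-like. Cdh1, the junction protein E-cadherin, was at 16 and 12 UMIs in the flox cells with none and with 3 or more, too few to count. At 2000 UMIs Krt7, Krt19 and Cdh1 were higher and Cldn7 lower of 7 genes counted. Krt8 was not 1.5-fold higher in both libraries at that depth, and Krt18, also on the list, was so at neither depth.

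**Figure D5:**
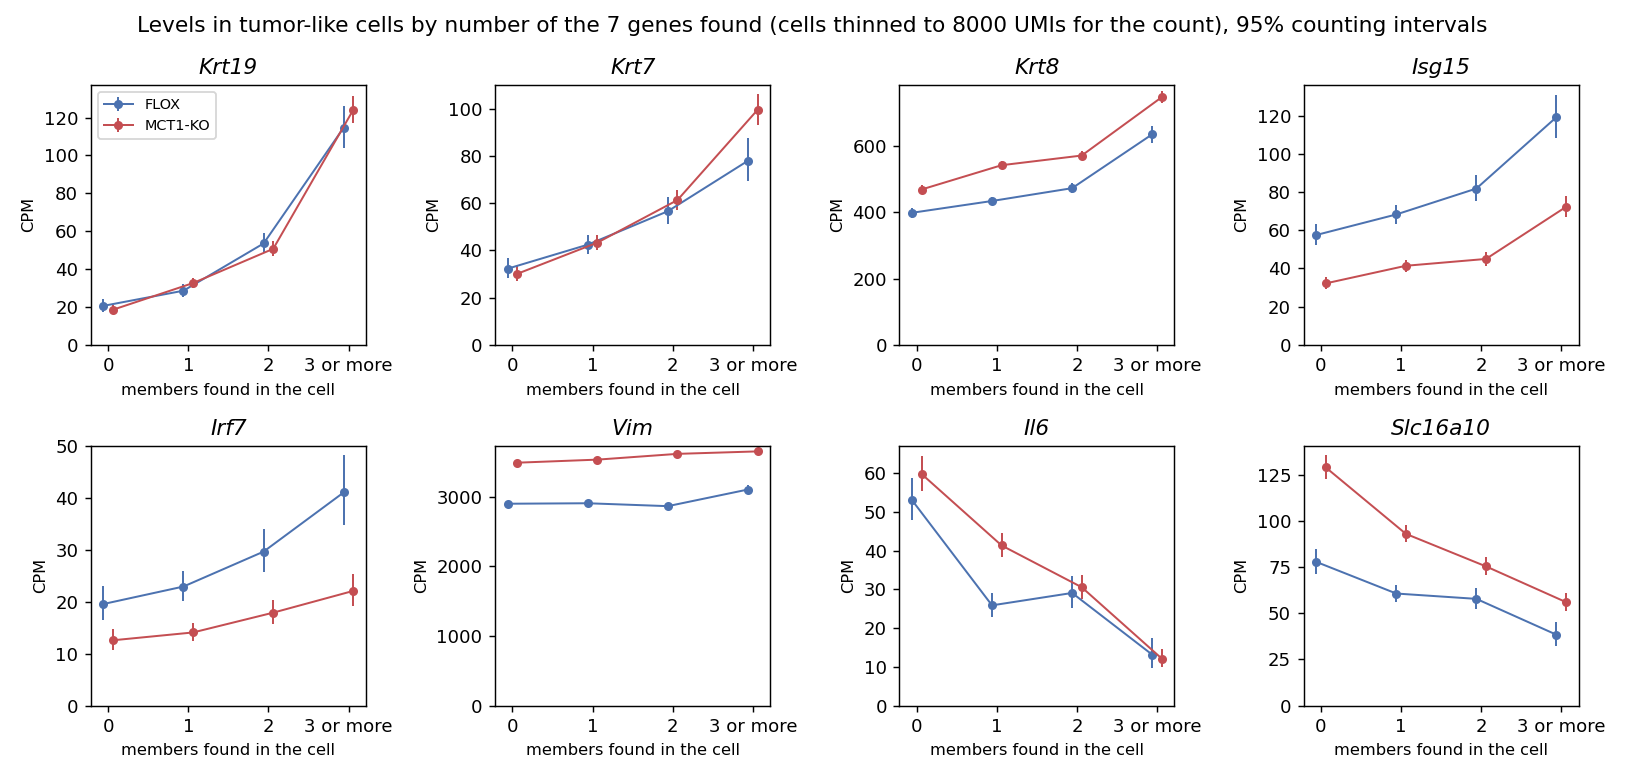
CPM of 8 genes in tumor-like cells with 0, 1, 2 and 3 or more of the 7 members found after thinning to 8000 UMIs, in the flox library (blue) and the library labelled MCT1-KO (red), with 95% counting intervals; lines join the points of a library. Krt19 goes from 20.6 and 18.5 CPM to 114.7 and 124.2, Vim stays level, and Il6 and Slc16a10 go down.

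Squamous and basal genes were mostly too low to compare. Of 12, 2 had enough UMIs, Sprr1a at 9.06 and 7.03 times and Trp63, the master regulator of squamous epithelium, at 0.894 and 0.879 times. At 2000 UMIs neither was higher in both libraries: Sprr1a had 0 UMIs in the 21 flox cells with 3 or more members and was 11.7 times as high in the other library. Ly6d went opposite ways, from 11.6 to 0.821 CPM in the flox library and from 0.754 to 2.76 CPM in the other, on few UMIs (81 to 3, and 9 to 26). None of the 6 EMT genes with enough UMIs was 1.5-fold different in both libraries, with Vim at 1.07 and 1.05 times, and none of 2 gastric genes. The 7 cell cycle genes gave none at 8000 UMIs and Birc5, a mitotic survivin, at 2000 UMIs.

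Interferon genes were partly higher in cells with 3 or more members. Of 7, Isg15, a ubiquitin-like modifier, went from 57.5 to 119.4 CPM and from 32.2 to 72.3, the transcription factor Irf7 was 2.10 and 1.76 times as high, and Ifit3 1.54 and 3.08 times, and the other 4 were not 1.5-fold different in both libraries. At 2000 UMIs only Isg15 and Irf7 of the 7 were. Il6, an inflammatory cytokine, was lower, from 53.1 to 13.1 CPM and from 59.8 to 12.1, as 1 of 4 cytokines with enough UMIs. At 2000 UMIs Il6 was 0.821 and 0.188 times and Cxcl1 was the single lower one. Within the Slc16 family, Slc16a10 was lower, from 77.8 to 38.3 CPM and from 128.9 to 56.0, and Slc16a1 stood at 1.35 and 1.38 times. Aqp1 was higher, at 1.90 and 1.66 times, but at 2000 UMIs it was not 1.5-fold higher in both libraries, and Aqp4 was that much lower. Annexin and S100 relatives gave none of 4 and none of 5. Y-linked host genes went from 4.997 to 2.46 CPM and from 3.52 to 1.81, and the median tumor marker level of the cells went from 8.65 to 12.9 and from 9.37 to 14.9 per 10000 UMIs. The part of host RNA and of the tumor marker level in these values was not tested.

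The genes whose level was most raised in cells with 3 or more members over cells with none, in the lower of both libraries at 2000 UMIs and among 10353 genes with at least 100 UMIs per library, were led by Car9, a carbonic anhydrase of the cell surface known as a hypoxia target. It stood at 8.95 and 129.9 CPM in the flox library and at 5.1 and 66.3 in the other, 14.5 and 13.1 times as high, from only 21 and 55 cells with 3 or more members. At 8000 UMIs it was first again, at 14.5 and 11.4 times. Next came Prl2c2, a prolactin family hormone (58.7 and 10.1 times, but 7.67 and 8.69 times at 8000 UMIs), the serpin Serpinb9b (10.1 and 10.8) and Krt19 (14.1 and 6.98). Pdk1, the kinase that shuts pyruvate dehydrogenase (4.17 and 3.2 times), and the glycolytic enzyme Pgk1 (5.44 and 3.0 times) were also among the 20, but not among the 20 at 8000 UMIs. The rest were Fbln1, Timp3, Klra4, Col6a3, Tenm4, 1700012B09Rik, Syt8, Cda, Urah, Gm41724, Vegfd, Vldlr, Ly6c1 and Gas7, and 13 of the 20 were among the 20 at 8000 UMIs as well.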

How the data were processed

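The labels describe single-cell suspensions of 1 FLOX and 1 MCT1-KO tumor made into libraries with a SeekOne MM 3′ kit, while the methods also name other droplet kits. The deposited values are raw UMI counts per gene and barcode. The authors trimmed reads with Fastp, counted with SeekOneTools and used Seurat 4.0.0, per the submitters' notes. The build named is GRCh38, although the gene identifiers are of mouse, so the mouse build behind the counts is not known. Cells were kept with at least 500 UMIs, 200 to 5000 genes and at most 8% mitochondrial UMIs. Kept cells were classed one by one from summed marker UMIs per 10000. The thresholds were set after levels had been seen, and the 7 genes were in no marker list. Cells that reached no class (1777 and 2910) were left unclassed. Doublets were not called. Members and lists were chosen with earlier results of these data known.

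With 1 library per group no test was made. Intervals were exact Poisson for counts, exact conditional for ratios and Clopper-Pearson for shares, and 3 counts were taken as what a count of 0 allows. Cells were thinned at random to 1000, 2000 or 8000 UMIs. On simulated data of 13290 genes with 200 changed, for the comparison between libraries, the intervals held the true ratio in 95.4% of genes. The simulated counts were Poisson, as the intervals assume, so this checks the calculation only. It does not give the coverage in these data, where UMIs of some genes are clumped in few cells. Named were the 7 genes, the listed relatives and pathways, and the 20 genes with the highest ratio between cells with 3 or more members and none. The 8000-UMI depth, the richest cells, the free share from macrophage-like cells and the sum without 2610528A11Rik were added after seeing the data. Python 3.11.15 was used with numpy 2.4.6, scipy 1.17.1, pandas 2.3.3 and matplotlib 3.10.9.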

Additional observations from a re-analysis of the deposited data

Results flagged for a closer look

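Barcodes with over 5000 detected genes were left out of the comparisons by the gene limit, and the 7 genes were found in them as well. The tumor-like ones, 1852 in the flox library and 1170 in the library labelled MCT1-KO, held a median of 30109 and 29122 UMIs, and the summed level of the 7 genes was 318.6 (314.1 to 323.2) and 296.2 (290.5 to 301.9) CPM. At least 3 of the genes were found in 58.2% and 65.0% of them, and all 7 in 7 and 2. Slurp1 stood at 13.9 CPM, 840 UMIs in 83 barcodes, in the flox library and at 6.34 CPM, 226 UMIs in 56 barcodes, in the other, with 82.3% and 61.1% of the UMIs in the 10 richest barcodes.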

How the results depend on the processing

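No paired analysis was possible because each group is 1 library and no test was made. Of 142 values under alternatives, 93 stayed inside the counting interval or, for counts of genes, within 1.5 times. Among the ratios between libraries the direction turned in 3, all for the summed ratio, which was 0.985 with free RNA subtracted by the acinar genes, 0.977 with no upper limit on genes and 0.991 when tumor-like cells were those with a tumor marker UMI and no Ptprc, Col1a1, Col3a1, Pecam1 or Lyz2 UMI. That rule left 849 and 2648 cells with medians of 1297 and 1750 UMIs.

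With free RNA subtracted by the acinar genes the ratio was 2.04 for Msln, 12.1 for Slurp1, 1.29 for Anxa8, 0.466 for 2610528A11Rik and 1.57 for Slc16a11. By the level in macrophage-like cells, an alternative chosen after seeing the data, the ratio of each gene and of the sum stayed inside its interval. Under the rule without immune or stromal UMIs it was 3.22 for Msln, 4.26 for Slurp1, 0.977 for Aqp5, 0.395 for 2610528A11Rik and 2.21 for Slc16a11. With no upper limit on genes it was 1.08 for Slurp1, 2.08 for S100g and 0.477 for 2610528A11Rik. Without the 10 richest cells it was 4.50 for Slurp1 and 0.563 for 2610528A11Rik, and the sum without 2610528A11Rik was 1.35. With at least 200 UMIs per gene, 392 genes were higher and 566 lower.

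The share of the genes' UMIs in tumor-like cells was 83.2% and 90.4% with at least 1000 UMIs per cell, 90.5% and 92.1% with no upper limit, 80.2% and 87.9% without Krt7 and Krt19 as markers, 83.3% and 90.3% without cells of 2 classes, and 5.75% and 20.6% under the rule without immune or stromal UMIs. The share of cells with 3 or more genes was 1.58% and 1.93% with no upper limit, 0.372% and 0.282% thinned to 1000 UMIs, 22.5% and 26.4% unthinned and 12.4% and 17.6% at 8000 UMIs, and 0.364% in the flox library under the rule without immune or stromal UMIs. Without Krt7 and Krt19 as markers it was 1.40% and 1.28%. There and at 1000 UMIs the flox library had the larger share, with overlapping intervals. At 8000 UMIs 0 cell cycle genes were higher, 0 epithelial genes lower and 1 squamous gene higher. In empty barcodes of 20 to 200 UMIs Msln was at 33.4 and 52.7 CPM, and in the library labelled MCT1-KO Anxa8 at 20.5, Aqp5 at 71.5, S100g at 19.9 and Slc16a11 at 34.4. The cause of these shifts was not tested.

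A difference between libraries cannot be told apart from one between 2 animals, 2 digestions or 2 preparations. The same holds for tamoxifen against corn oil, if the hosts differed in that. Slurp1 rests on 45 and 103 cells, and the mesothelial-like class on 18 and 30. Free RNA that holds the same genes limits what a single UMI in a cell shows.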

Other observations

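Unclassed cells, with median depths of 1042 and 931.5 UMIs, held each of the 7 genes at a lower level than tumor-like cells. 2610528A11Rik stood there at 81.9 and 49.0 CPM and Aqp5 at 56.6 and 54.3 CPM, while Slurp1 was at 1.29 and 1.67 CPM. Of these cells 875 of 1777 and 1519 of 2910 held no UMI of a tumor marker.

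Within the CD8 cells, Slc16a11 was also compared by checkpoint receptor, a split chosen after seeing the data. Cells with a UMI of Havcr2 (TIM-3) held 40.8 and 64.2 CPM and those without 19.5 and 34.6 CPM, ratios of 2.09 (1.06 to 4.24) and 1.85 (0.954 to 3.60). For Pdcd1 (PD-1) the ratios were 0.871 and 1.1. The richest flox CD8 cell, with Havcr2 and without Pdcd1, held 8 Slc16a11 UMIs. These were 8 of the 23 UMIs with Havcr2 and of the 12 without Pdcd1. Both flox ratios thus lean on that cell, and no contrast between the receptors is read. By cells, Slc16a11 was in 19 of 222 flox cells with Pdcd1 and 4 of 110 without. In the other library it was in 17 of 114 and 11 of 108. For Havcr2 the counts were 9 of 95 and 14 of 237, and 12 of 57 and 16 of 165. The cells with Havcr2 were deeper, at medians of 4709 and 3892 UMIs against 2968 and 2820, and the part of depth in the ratio was not tested.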
